A study of Mus musculus with 6 samples.

Results

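The WT-only mSin3A regions are stretches of the genome listed as enriched for mSin3A in both libraries from wild-type (WT) CD8 T cells and in neither library from CD8 T cells lacking Tcf1 and Lef1. Enriched stretches (islands) of the 4 deposited lists were merged where they shared a base or touched, which gave 23510 regions. Of these, 685 held an island of each WT library and none of either deficient library. The regions were thus chosen by the calls of these same 4 libraries, and their counts, reads and widths are a description, with no test.

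mSin3A was immunoprecipitated with its bound DNA, which was sequenced (ChIP-seq), from sorted spleen T cells positive for CD8 and with a high level of the T cell receptor beta chain. Cells came from wild-type mice, or from Tcf1-/-Lef1-/- mice in which Cre under Cd4 sequences had removed both genes, so that the loss begins in developing T cells that express Cd4. Each genotype gave 1 library in condition 1 and 1 in condition 2, so there is no replicate check. What the conditions are, the strain, the age and the number of mice per library were not stated in the sources used here, and the 2 input libraries were not analysed here. Lists of islands do not measure expression, so the labelled cell type was not checked against its markers.

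mSin3A is the scaffold of a co-repressor complex that carries histone deacetylases. It does not itself read DNA sequence but is brought to chromatin by transcription factors and other co-repressors. Tcf1 and Lef1 are HMG-box factors that bind DNA directly, activate genes with beta-catenin and repress others with co-repressors of the TLE family. In mature CD8 T cells they are known for keeping genes of the CD4 helper lineage silent. The comparison asks where mSin3A was listed in cells with these factors and not in cells without them.

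Positions are on mouse build mm9, counted from 1. The annotation and sequences at hand belong to another build (GRCm38), so no gene, promoter or sequence is given for any region. The whole number in each island's row was read as its ChIP reads. It is scaled neither for library size nor for width. The 4 lists held 11151 to 15954 islands and 1792952 to 1917097 island reads, and in each condition the deficient list was the longer. Reads outside islands are unknown, so an absent island says only that the caller listed nothing there, not that mSin3A was absent.

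The WT-only regions made up 2.91% of all merged regions and 9.9% of the 6919 regions called in both WT libraries. For comparison, 2111 regions were called in both deficient libraries and in neither WT library, which was 8.98% of all regions and 21.7% of the 9726 called in both deficient libraries. Within a single condition, more regions than under the full rule were called in WT without a deficient partner. They were 20.3% of merged regions in condition 1 and 15.2% in condition 2. Shares in the opposite direction, from the longer deficient lists, were not computed. Regions under the full rule are by construction a part of those of either condition. Leaving out 1 library loosens the rule, so it raised their number by construction. Without WT condition 1 it would be 2956, without WT condition 2 it would be 4437, and without deficient condition 1 it would be 1081. Leaving out deficient condition 2 gave 918. Deficient-only regions numbered 3.08 for each WT-only region, but 0.683 without WT condition 2. The ratio was 1.12 without WT condition 1, 3.97 without deficient condition 1 and 6.30 without deficient condition 2. With 1 library left out, its genotype needed a call in only 1 library, while the other genotype still needed 2. These 4 ratios thus set unequal rules against each other, and their direction does not compare the genotypes.

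WT-only regions took a small part of each WT list. In condition 1 they held 700 islands, 5.23% of the list, with 64307 reads (3.46%) over 2.79 Mb. In condition 2 they held 688 islands, 6.17% of the list, with 70131 reads (3.91%) over 2.99 Mb. Nearly all were simple: 667 of 685 (97.4%) consisted of exactly 1 island in each WT library, and the other 18 had 1 island in one library and 2 in the other. Deficient-only regions were much the same, with 1 island in each deficient library in 2036 of 2111 (96.4%).

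Most WT-only regions held fewer reads than shared ones. Reads ran from 16 to 3047 with a median of 74 in WT condition 1, and from 21 to 3168 with a median of 79 in WT condition 2. Regions called in both WT libraries and in just 1 deficient library had medians of 95 and 109 reads, and regions called in all 4 libraries had medians of 159 and 174. The middle 50% of WT-only regions lay between 50 and 109 reads in condition 1 and between 57 and 119 in condition 2, so they overlapped the lower part of the shared regions. At least 100 reads in both WT libraries were found in 140 WT-only regions (20.4%).

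Read density separated the classes in the same order. The median was 22.0 reads per kb in condition 1 and 22.3 in condition 2 for WT-only regions, 25.0 and 25.9 for those also called in 1 deficient library, and 32.5 and 32.7 for those called in all 4. Deficient-only regions stood higher than WT-only ones, with 25.8 reads per kb in deficient condition 1 and 25.4 in deficient condition 2. WT-only regions were a little wider than deficient-only ones, with a median merged width of 4999 bp against 4199 bp, and 9.78% of them reached 10 kb against 4.69%. WT islands are also the wider ones in the lists as a whole, with a median of 3599 and 4199 bp against 3199 and 3799 bp.

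The share of regions of both WT libraries that were absent from both deficient lists fell steeply with reads. Among regions whose poorer WT library held at most 40 reads, 57.3% were WT-only (110 of 192, Wilson 95% interval 50.2 to 64.1). The share was 25.2% between 61 and 80 reads, 9.06% between 81 and 100, and 4.84% between 101 and 150. Above 300 reads it was 0.541% (4 of 739, interval 0.211 to 1.38). Intervals cover counting only, and neighbouring regions are not independent.

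**Figure D1:**
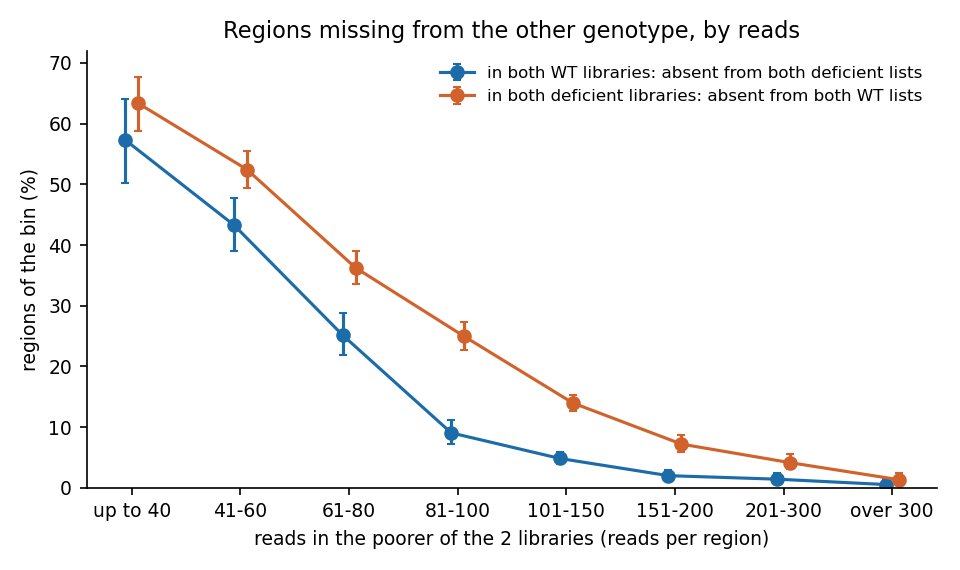
Share of regions missing from both lists of the other genotype (y axis, %), by the reads of the poorer of the 2 libraries that hold the region (x axis, reads per region), with Wilson 95% intervals as bars. Blue points are regions called in both WT libraries and orange points those called in both deficient libraries; both fall with reads, from 57.3% to 0.541% in WT and from 63.3% to 1.34% in deficient cells.

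In regions of deficient cells the share fell with reads too, from a higher level. Between 101 and 150 reads, 14.0% of regions called in both deficient libraries were missing from both WT lists (369 of 2640), against 4.84% in the opposite direction (96 of 1983). Up to 40 reads the shares were 63.3% and 57.3%. The deficient lists hold more islands than the WT lists of the same condition. With all lists shortened by reads to the length of the shortest, there were 1.77 deficient-only regions for each WT-only region, against 3.08 with full lists; the shares by reads were not computed on shortened lists.

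Width showed the same pattern within WT. Of regions whose narrower WT call spanned at most 1 kb, 24.3% were WT-only (43 of 177). The share was 9.23% between 3 and 5 kb and 1.35% above 10 kb (10 of 741).

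For their width, WT-only regions were poor in reads. Each was set among the islands of like width, within a factor of 1.2, of its own list and of the deficient list of the same condition. The median WT-only region stood at percentile 30.2 of its own list in condition 1 and 25.5 in condition 2. Against the deficient islands it stood at percentile 28.3 and 25.6. In both conditions, 54 WT-only regions (7.88%) held more reads than the median deficient island of like width. Only the chr10 region described next held more than every such island in both conditions.

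That region, chr10:7228801-7238399, led the WT-only set by far. It held 3047 reads in WT condition 1 (exact Poisson 95% interval 2940 to 3157) and 3168 in WT condition 2 (3059 to 3280). Its density of 317 and 396 reads per kb was more than 10 times the median of the set. Among deficient islands of like width, the fewest reads listed were 127 of 855 islands in condition 1 and 99 of 1383 in condition 2. The nearest deficient island lay 69.4 kb away. Since the inputs were not analysed, the background signal at this position is unknown.

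The 20 WT-only regions with the best read ranks were taken by the worse of their 2 percentile ranks in the WT lists. Apart from the chr10 region they held 177 to 450 reads in condition 1 and 215 to 513 in condition 2. Their densities were 21.9 to 32.1 and 19.7 to 36.1 reads per kb. In condition 1 these ran from about the WT-only median of 22.0 upward. In condition 2 they lay on both sides of the median of 22.3. Their widths were 9199 to 19399 bp. The highest was chr4:119700601-119715999, with 450 and 513 reads. Of these 19 it was also highest for its width in both conditions, as it exceeded 81.6% of the 348 like-width deficient islands in condition 1 and 90.1% of the 467 in condition 2. By contrast, chr5:141110201-141129599 held 436 and 465 reads, yet exceeded only 34.0% and 32.8% of deficient islands as wide as itself.

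Places 11 to 20 of this ranking were more moderate. On chromosome 8, chr8:96891401-96904799 held 226 and 302 reads and chr8:14965601-14976399 held 275 and 230. In the latter the WT calls shared 96.3% of the bases that either covered. On chromosome 6, chr6:127272401-127291799 held 182 and 429 reads and chr6:147043401-147054599 held 182 and 265, both higher in condition 2. The remaining 6 were chr11:51687401-51702799 (295 and 233 reads), chr7:129527401-129542399 (197 and 258), chr4:119583201-119600399 (289 and 270), chr18:75756001-75768399 (267 and 215), chr9:14704001-14713199 (206 and 215) and chr2:152726601-152740999 (177 and 327). Of all 20, 6 had a deficient island within 5 kb. Both chr8 regions, chr6:147043401-147054599 and chr19:45863801-45875799 (228 and 281 reads) were no longer WT-only when islands within 2 kb were joined.

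The WT libraries agreed on WT-only regions less closely than on regions called in all 4 libraries, which also held more reads. Bounds agreed exactly in 17 of 685 WT-only regions. The bases shared by both WT calls made up a median of 54.5% of the bases covered by either, against 56.2% in regions also called in 1 deficient library and 61.5% in regions called in all 4. Under 25% agreement was found in 96 WT-only regions (14.0%), and in 3 the WT calls shared no base and were joined only because they touched. In deficient-only regions the deficient libraries had a median agreement of 59.3%, and 7.44% of regions were under 25%.

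Among WT-only regions with at least 100 reads in each library, the closest agreement was at chr9:51019401-51022399, where both calls had the same bounds and held 106 and 111 reads. Next came chr17:80536201-80542199 with 115 reads in each, then the chr8:14965601-14976399 region above. The other 2 were chr1:193081801-193085999, with 124 and 115 reads, and chr18:70770201-70773399, with 103 and 109. In these 5 regions the WT bounds were nearly the same, and the reads differed most in the chr8 region.

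**Figure D2:**
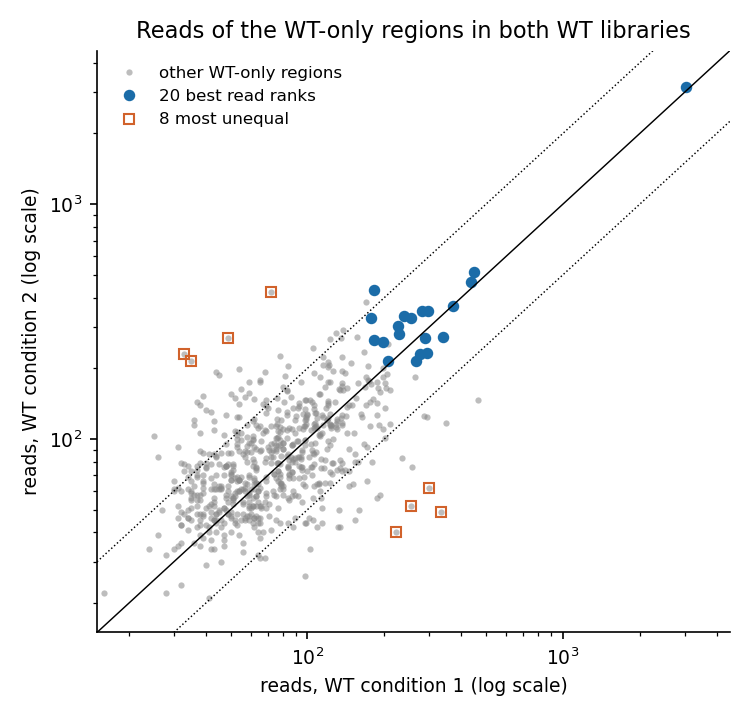
Reads of each of the 685 WT-only regions in WT condition 1 (x axis) and WT condition 2 (y axis), both on log scales; the solid line marks equal reads and the dotted lines a 2-fold difference. Blue points are the 20 best read ranks, open squares the 8 most unequal regions; the chr10 region stands alone at 3047 and 3168 reads.

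Reads in the WT libraries rose together across the WT-only regions, with scatter. Pearson's r of log2 reads was 0.60 and Spearman's rho 0.54 over 685 regions. Without regions above 100 reads per kb they were 0.56 and 0.54 (681 regions). Over the 597 regions of both WT and 1 deficient library they were 0.64 and 0.63, not far from the WT-only values. Over the 5637 regions called in all 4 libraries they were 0.84 and 0.79. All points come from the same pair of libraries and the WT-only set spans fewer reads, so these values are descriptions. The log2 ratio of reads, condition 2 to condition 1, had an SD of 0.72 over WT-only regions. It was 0.69 over regions of both WT and 1 deficient library, and 0.51 over those called in all 4. For density the SD was 0.33, 0.37 and 0.39 in the same order. Density thus varied no more between the WT libraries in WT-only than in shared regions. The differences in reads followed called length, with r = 0.95 between the log2 ratios. This was much the same in other classes. There r was 0.94 in regions of both WT and 1 deficient library, 0.90 in regions called in all 4, and 0.91 in deficient-only regions between the deficient libraries.

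A difference in reads of over 2-fold between the WT libraries occurred in 96 WT-only regions (14.0%), 62 of them higher in condition 2 and 34 higher in condition 1. Density differed over 2-fold in 8 (1.17%). Between the deficient libraries, reads differed over 2-fold in 186 of 2111 deficient-only regions (8.81%), 152 higher in condition 2 and 34 higher in condition 1. Density did so in 1.80% of them. The lean to condition 2 was thus present in both classes. The most unequal regions were picked after their values were seen. The first was chr10:39117001-39128599, with 33 reads over 1399 bp in condition 1 and 229 reads over 11599 bp in condition 2. In the opposite direction, chr4:135120201-135134999 held 333 reads over 14799 bp and 49 reads over 2199 bp. At such places the WT libraries shared a call but differed in its extent.

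Of the 5 widest WT-only regions, 4 were of this kind. The widest, chr15:99094401-99117599, was a call of 72 reads in condition 1 and 424 reads in condition 2 that agreed over 13.8% of joined bases. At chr4:149237401-149258799 the reads were 465 and 147, and agreement was 19.6%. At chr7:147126601-147145399 they were 123 and 267, with 3.19% agreement. The other 2 of the 5 widest have been given: the chr5 region agreed over 92.8% of its bases and the chr6 region starting at 127272401 over 38.1%.

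Very dense WT-only regions were few: 4 of 685 exceeded 100 reads per kb in a WT library. Besides the chr10 region they were short, with few reads. The shortest, chr2:16604601-16604799, spanned 199 bp with 16 and 22 reads. At chr3:37380401-37380799 there were 32 and 43 reads over 399 bp, and at chr1:138261001-138262199 there were 57 and 62 reads. Ranked by the lower of its 2 densities, the fifth was chr5:100001401-100002199, which held 51 and 53 reads over 799 bp, with the same bounds in both WT libraries.

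At the other end, the 5 regions lowest by the higher of their 2 densities had 13.5 to 16.1 reads per kb. They were chr16:45939201-45942599 with 47 and 51 reads, chr13:49008201-49015599 with 65 and 89, chr11:102025801-102032999 with 65 and 113, chr7:109012001-109022999 with 106 and 63, and chr10:82840201-82844399 with 48 and 58. In the chromosome 7 region the WT calls shared only 1.81% of their joined bases. The merged widths of these 5 ran from 3399 to 10999 bp, on both sides of the WT-only median of 4999 bp.

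Deficient islands often lay close by. The median gap from a WT-only region to the nearest deficient island was 14.4 kb, and 50% of gaps lay between 4.8 and 36.8 kb. Within 5 kb there was a deficient island for 180 WT-only regions (26.3%), and within 100 kb for 618 (90.2%). Deficient-only regions had almost the same distances to WT islands, with a median of 16 kb and 23.7% within 5 kb. When every list was shortened by reads to equal length, the median gap of WT-only regions was 19.2 kb and 21.9% lay within 5 kb. A reciprocal overlap of 50% gave a median of 2.4 kb with 57.0% within 5 kb. That rule keeps regions which a deficient island overlaps in part and counts them as having no gap, so its values are not like the others. Joining islands within 2 kb, which removes the shortest gaps by construction, gave 15.4% within 5 kb. Leaving out regions with a deficient island within 5 kb raised the median to 22.4 kb, also by construction.

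**Figure D3:**
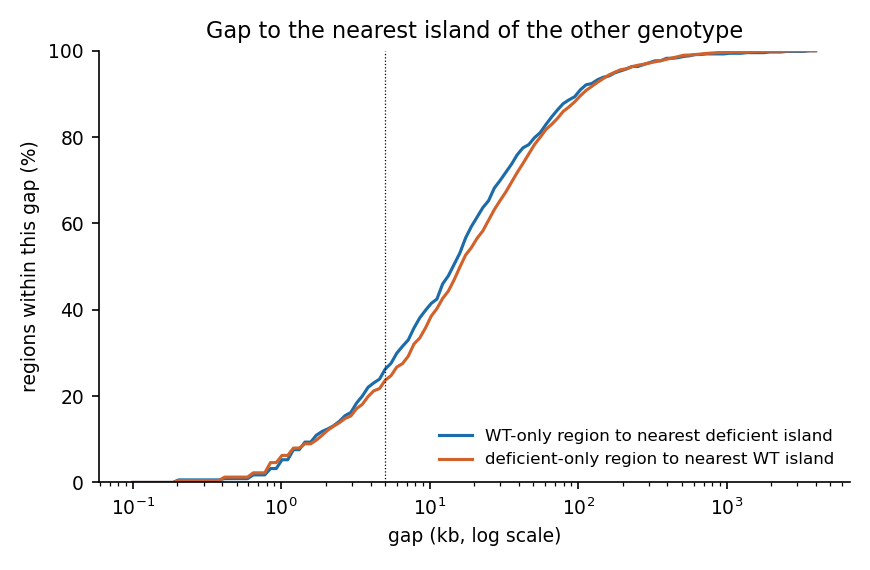
Cumulative share of regions (y axis, %) with an island of the other genotype within a given gap (x axis, kb, log scale); the dotted line marks 5 kb. Blue is the 685 WT-only regions and orange the 2111 deficient-only regions; 26.3% and 23.7% lie within 5 kb, and the curves stay close throughout.

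Those 180 regions with a close deficient island were a mixed set. For 102 of them the nearest region with a deficient island also held a WT island, and for 62 it was called in all 4 libraries. For 59 it was a call of 1 deficient library alone, and for 19 it was a deficient-only region. A deficient island within 5 kb on both sides was found for 16 WT-only regions. Regions with a close deficient island had medians of 84.5 and 92.5 reads, against 58 and 64 for the 67 with none within 100 kb. They were also wider, with a median of 5899 bp against 3599 bp. Their median density was no higher, at 21.7 and 22.3 reads per kb against 22.5 and 23.5.

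At the edge of the rule, 4 WT-only regions lay 200 bp from a deficient island, which is 1 step of the grid on which all island starts lie. They were chr17:32181401-32186999 (93 and 68 reads), chr4:135216201-135224599 (136 and 173), chr6:54871801-54882799 (198 and 200) and chr7:150888201-150894799 (137 and 79). At 400 bp lay chr2:26413601-26420799, with 114 and 126 reads, and chr6:147043401-147054599, given above. All of these lost the WT-only call when islands within 2 kb were joined.

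Just outside the rule were regions of both WT libraries whose call in 1 deficient library held few reads. At chr9:44490201-44503199 the WT reads were 253 and 141, and deficient condition 1 held 22. At chr11:79034201-79039199 they were 93 and 52, with 27 in deficient condition 1. Few deficient reads were also listed at chr8:47841001-47843399 (34 and 51 in WT, 27 in deficient condition 1) and chr1:173534801-173537999 (57 and 54, 29 in deficient condition 1). At chr13:48329201-48329799 the WT reads were as few (24 and 32), and the 29 of deficient condition 2 exceeded those of WT condition 1. These deficient calls were among those with the fewest reads that kept a region of both WT libraries out of the WT-only set.

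The WT-only regions farthest from any deficient island held few reads, apart from 1 value of 151. The farthest, chr14:96060201-96063399, lay 3380 kb away and held 38 and 39 reads. The nearest deficient island was 2485 kb from chrX:112662601-112666799, with 59 and 47 reads, and 1895 kb from chr8:44398801-44406199, with 57 and 151. The chr2 region of 199 bp above lay 1363 kb away, and chr18:19994001-19995199, with 34 and 41 reads, lay 975 kb away.

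WT-only regions sat beside each other more often than their share of all regions. Of the 1369 regions that directly flank a WT-only region, counted once per side, 78 were WT-only too. That was 5.70% (Wilson 95% interval 4.59 to 7.05), against 2.91% of the flanks of all merged regions. Each adjacent pair of WT-only regions is counted from both of its members, so the interval is too narrow. Deficient-only regions had deficient-only flanks in 9.06% of cases, against 8.98% of all flanks. Regions called in both WT and 1 deficient library had WT-only flanks in 4.27% (interval 3.26 to 5.57), and this interval overlaps that of WT-only regions. Within 100 kb, another WT-only region was found for 125 of 685 (18.2%), compared with 14.3% of all merged regions. The value was as high for regions of both WT and 1 deficient library (109 of 597, 18.3%), and it was 15.9% for regions called in all 4, so it does not set WT-only regions apart from other regions of both WT libraries.

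Chained within 100 kb, the 685 regions formed 560 lone regions, 51 pairs, 5 groups of 3 and 2 groups of 4. The first 3 groups, by members and then by reads, were all on chromosome 4. The first, chr4:119700601-119797799, had 4 members with 1233 reads in condition 1 and 1484 in condition 2. In order along the chromosome they held 450 and 513, 372 and 370, 156 and 273, and 255 and 328 reads. No deficient island lay among them.

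This group lay in a longer stretch, looked at after its values were seen. Further members lay on either side, chr4:119583201-119600399 with 289 and 270 reads and chr4:119952201-119963599 with 135 and 270. Over the whole 380 kb, chr4:119583201-119963599, 11 WT islands (1860 reads) were listed in condition 1 and 7 (2024 reads) in condition 2. The deficient list of condition 1 had 1 island there, with 58 reads over 2.4 kb, and that of condition 2 had 0. The stretch was bounded by WT-only regions, which held 1657 of the condition 1 reads and all 2024 of condition 2. Inside them, deficient islands are absent by the rule. Left of the stretch, deficient condition 1 had islands of 37, 63 and 29 reads, the nearest 12.0 kb away. No merged region in the stretch was called in both genotypes.

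**Figure D4:**
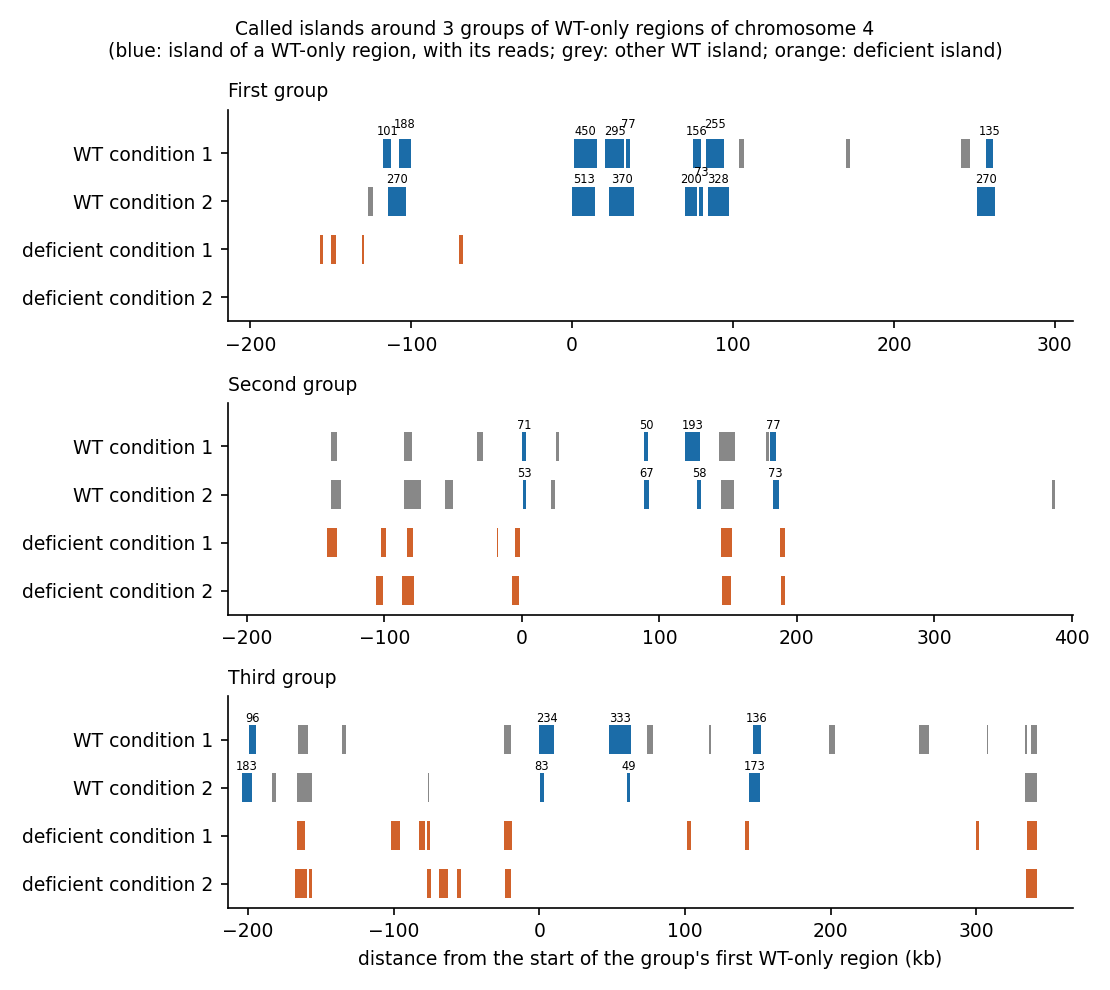
Islands of the 4 libraries (rows) around the 3 leading groups of WT-only regions, all on chromosome 4, by distance from the start of each group's first member (x axis, kb). Blue bars are islands of WT-only regions with their reads printed above, grey bars other WT islands and orange bars deficient islands; the first panel holds 4 deficient islands, all in condition 1, and the other panels hold islands of both deficient libraries.

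The other groups differed from the first in their surroundings. In chr4:149465001-149651799 the 4 members held 71 and 53, 50 and 67, 193 and 58, and 77 and 73 reads. A region called in all 4 libraries lay between the last pair, and the first and last members each had a deficient-only region 1.2 kb away. Next came chr4:135072201-135224599, a group of 3 members with 234 and 83, 333 and 49, and 136 and 173 reads. Its last member had a deficient island 200 bp away. Deficient calls thus lay among the members of these groups, and none lay among those of the first.

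WT-only regions occurred on all 20 chromosomes present in the lists. Their share of merged regions ran from 1.95% on chromosomes 14 and 17 to 4.08% on chromosome 4 (61 of 1496, Wilson 95% interval 3.19 to 5.20), around the 2.91% of the whole. The interval of chromosome 4 lay above this value, that of chromosome 17 (1.30 to 2.91) just below it, and that of chromosome 15 (39 of 985, 3.96%, 2.91 to 5.37) reached down to it. On chromosome X, 10 of 425 regions were WT-only (2.35%).

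**Figure D5:**
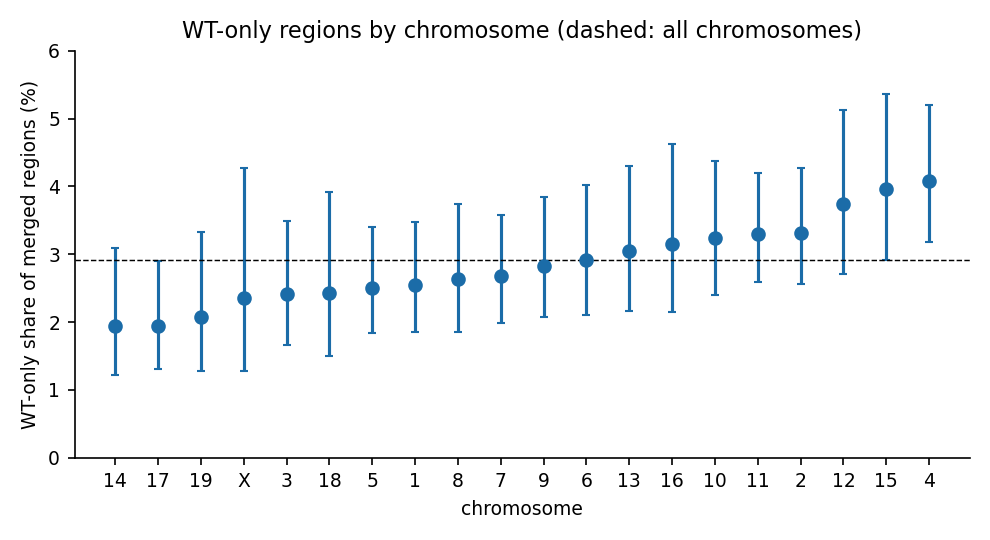
WT-only share of the merged regions of each chromosome (y axis, %), in order of that share (x axis, chromosome), with Wilson 95% intervals; the dashed line is the 2.91% of all chromosomes. Chromosome 4 stands highest at 4.08%, and most intervals include the line.

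As a share of the regions called in both WT libraries, chromosome 4 stood at 12.6% (61 of 484), below chromosomes 12 and 15, each at 13.1%. Chromosome 19 was lowest at 6.25% (16 of 256). Chromosome 4 was low in deficient-only regions, which made up 7.75% of its merged regions against 8.98% overall. On chromosome 1, 11.5% of merged regions were deficient-only. Its WT-only share, 2.54%, had an interval of 1.85 to 3.48, which includes the 2.91% of all chromosomes.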

How the data were processed

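The data are 4 deposited lists of mSin3A islands, 1 for each combination of genotype and condition; inputs were left out. Per the submitters' processing notes, the tools were FastQC, Bowtie2 2.2.5 and SICER 1.1, and the build was mm9. SICER joins enriched windows into broad islands. Its settings and whether the inputs served as background were not stated in the sources used here. Every deposited start is a multiple of 200 bp, and neighbouring islands of a list are 800 bp or more apart. The authors' deposited value per island was read as a raw count of reads, from the layout and the values, since the files have no header. Widths are end minus start as deposited; printed starts have 1 added.

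Islands of all lists were merged where they shared a base or touched. A gap is the next deposited start minus the end before it, minus 1 bp, so that touching islands have none. The read rank of a region is that of its richest island within its list, in percent, and the worse of both WT ranks was used. With 1 library per group and a rule made from the calls, no test was made. Gene lists, gene starts and sequence features, planned in case an mm9 reference was given, were not run.

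Named were the 20 best ranks, the 5 widest, 5 at each extreme of density (the lower of both libraries for the densest, the higher for the least dense), 5 at each extreme of gap (ties in order of chromosome), the 5 with the best agreement of bounds (at least 100 reads in each library), 5 just outside the rule, and the 3 largest groups chained within 100 kb. The regions, lists and measures were chosen with earlier results of these data known. The shares by reads and by width, the like-width percentiles, the flanks, the most unequal regions and the longer chromosome 4 stretch were added after the values were seen. Intervals are Wilson or exact Poisson at 95% and cover counting error only. The functions were tested on simulated lists of known pattern. Python 3.11.15, numpy 2.4.6, pandas 2.3.3 and scipy 1.17.1 were used.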

Additional observations from a re-analysis of the deposited data

How the results depend on the processing

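The number of WT-only regions stayed within 1.5 times of 685 in 8 of 12 alternatives. Restricting each list to its upper 50% by reads gave 203, of which only 85 of the 685 were still part, and leaving out 1 library gave between 918 and 4437. Their share of merged regions was 2.11% in the upper 50%, 4.05% with lists shortened to the shortest, 2.15% with no deficient island allowed within 5 kb, and between 4.18% and 20.3% without 1 library. Deficient-only regions numbered 3.08 for each WT-only region, which became 1.77 with shortened lists and between 0.683 and 6.30 without 1 library. Leaving out 1 library loosens the rule, so the number and share of WT-only regions rise by construction. It also makes the rule unequal between the genotypes, so the range of ratios does not compare them. The median gap to a deficient island, 14.4 kb, was 17.3 kb when islands within 2 kb were joined, 21.0 kb in the upper 50%, 19.2 kb with shortened lists, 2.4 kb under a reciprocal overlap of 50%, 22.4 kb with no deficient island within 5 kb, and between 16.2 and 18.8 kb without 1 library. The share within 5 kb, 26.3%, was 15.4% with joining within 2 kb, 21.2% in the upper 50%, 21.9% with shortened lists, 57.0% under reciprocal overlap, and between 19.4% and 25.2% without 1 library. Under reciprocal overlap, a region that a deficient island overlaps in part can stay WT-only and is counted as having no gap. Median reads of 74 and 79 became 151 and 168 in the upper 50%, 81 and 85 with shortened lists, 94 and 101 under reciprocal overlap, between 54 and 83 in condition 1 and between 62 and 90 in condition 2 without 1 library. Agreement of bounds, 54.5%, was 51.5% with joining, 61.9% in the upper 50% and 67.9% under reciprocal overlap. Keeping to autosomes, leaving out islands under 1 kb and leaving out islands above 100 reads per kb moved none of these values beyond their intervals. Joining within 2 kb left 585 of the 685 regions in a WT-only region. Causes of these shifts were not tested, beyond what each alternative removes by construction. No paired analysis was possible because the results come from no test: the regions were chosen by the calls of all 4 libraries, and the labels number conditions, not replicates. Without the inputs and the reads outside islands, a weak signal below the calling limit in deficient cells cannot be told apart from no signal. The planned share of regions at gene starts was not run, since no mm9 annotation was used.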
